A study of Mus musculus with 2 samples.

Results

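The genes described here are 9 members of the machinery that decides whether a cell lives or dies by apoptosis: the pro-survival genes Bcl2, Bcl2l1 (BCL-XL) and Mcl1, the effector Bak1, the BH3-only genes Bcl2l11 (BIM), Bid, Bad and Bmf, and the death receptor Fas. They were chosen by symbol out of 32285 genes listed, with no cut-off on level but with earlier results of these data known. All 9 reached the minimum set here of 100 unique molecular identifiers (UMIs, each standing for 1 captured transcript) in either library. Thymic epithelial cells (TECs), sorted as EpCAM+ CD45- TER119- from C57BL/6 female mice, were profiled by droplet single-cell RNA-seq of transcript 3′ ends. There were 2 libraries, 1 per condition, each from the pooled cells of 3 mice: mice given 5.5 Gy of γ-irradiation when 7 weeks old, with the thymus taken on day 15 after it, and age-matched mice without irradiation; the labels give the age of both groups as 9 weeks in one field and as 4 weeks in the extraction protocol. The labels call the library with fewer barcodes the irradiated one, whereas the number of cells that pass the limits and the names of the deposited matrices assign it, by the study's own account, to the control mice. The libraries are therefore called the smaller and the larger library throughout, every ratio is the larger over the smaller, and its direction with respect to irradiation reverses between these readings.

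BCL2 family proteins control the permeability of the mitochondrial outer membrane. Pro-survival members hold the effectors BAX and BAK in check, BH3-only proteins bind and neutralise the pro-survival members or activate the effectors, and Fas on the cell surface assembles a caspase-8 complex when its ligand binds, which cuts BID and so joins the mitochondrial route. In the thymus, these proteins are best known for their part in the selection of thymocytes, and the epithelium itself holds cortical cells (cTECs), which select early thymocytes, and medullary cells (mTECs), which include the short-lived cells that express the autoimmune regulator Aire, the Ccl21a-expressing cells that attract thymocytes, and mimetic cells that resemble tuft cells, enterocytes, microfold cells or keratinocytes.

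The start regions of Bcl2, Bcl2l1 and Fas are shown because the results by cell class turn on these genes. Each is the 250 bases before a RefSeq start (GRCm38.p6) and overlaps no annotated exon; capitals mark a GC box (GGGCGG, either strand), the binding motif of SP1-type factors.
Bcl2, chr1:106714291-106714540, minus strand: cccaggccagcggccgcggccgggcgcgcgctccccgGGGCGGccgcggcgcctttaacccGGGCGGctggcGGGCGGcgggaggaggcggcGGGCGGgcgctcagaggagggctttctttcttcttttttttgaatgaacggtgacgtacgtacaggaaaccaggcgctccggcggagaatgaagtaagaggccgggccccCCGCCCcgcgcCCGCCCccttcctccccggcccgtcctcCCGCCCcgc
Bcl2l1, the most upstream of 3 listed starts, chr2:152831729-152831978, minus strand: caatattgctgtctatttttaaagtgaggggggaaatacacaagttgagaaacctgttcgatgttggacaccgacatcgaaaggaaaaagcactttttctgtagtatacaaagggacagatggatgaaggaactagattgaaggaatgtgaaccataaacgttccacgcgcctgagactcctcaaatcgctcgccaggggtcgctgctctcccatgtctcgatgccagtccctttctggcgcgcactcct
Fas, chr19:34290409-34290658, plus strand: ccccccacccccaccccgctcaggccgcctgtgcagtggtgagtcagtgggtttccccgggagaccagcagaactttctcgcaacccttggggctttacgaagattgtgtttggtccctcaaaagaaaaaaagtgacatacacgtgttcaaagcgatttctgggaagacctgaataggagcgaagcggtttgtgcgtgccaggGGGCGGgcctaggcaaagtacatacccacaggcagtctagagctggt
The Bcl2 region was 74.8% G or C and held 7 GC boxes, the Fas region was 56.4% G or C with 1, and the Bcl2l1 region was 47.6% G or C with none. Over 32851 start regions of the same length, the median was 52.4% G or C and 32.7% held a GC box. None of the 3 regions shown held a CCAAT box (CCAAT, in 33.8% of all regions), a TATA box (TATAAA, in 12.4%) or a match to the kappa B consensus (in 7.25%), each searched on both strands. Of the other starts of Bcl2l1, start 2 of 3, whose window overlaps an exon and is not shown, held 1 match to the kappa B consensus. These matches describe letters only. In GRCm38, Bcl2 spans chr1:106538178-106714274, Bcl2l1 spans chr2:152780668-152831728 and Fas spans chr19:34290666-34327772.

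Of 4937 barcodes in the smaller library, 3233 passed the limits of more than 2000 and fewer than 7500 detected genes and less than 15% mitochondrial UMIs, and of 7167 barcodes in the larger library 5070 did. Kept cells had a median of 13412 and 13003.5 UMIs, and 17 barcodes occurred in both libraries. Each cell was placed in 1 of 11 classes by the UMIs of marker genes per 10000 of its UMIs: cTEC (Psmb11 and Prss16), cTEC with thymocyte RNA, tuft, G2/M, S, Aire-high, enterocyte, microfold, keratinocyte, Ccl21a-high and a class that passed no gate. The epithelial markers Epcam, Krt8, Krt18, Krt5, Krt14 and H2-Aa were all detected, at a summed 123 and 128 UMIs per 10000. Class sizes ranged from 25 cells (cTEC with thymocyte RNA, smaller library) to 1603 (Ccl21a-high, larger library). The 10 handling-stress genes (Fos, Jun, Hspa1a and others) were higher in the smaller library in every class, with a median log2 ratio between -0.55 (microfold) and -1.31 (no gate). Levels are UMIs per 10000 UMIs of a class, followed in parentheses by the exact 95% Poisson interval, which covers counting error only; since they count 3′ ends, they are compared between classes and libraries and not between genes.

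Among the pro-survival genes, Bcl2 and Bcl2l1 ran in opposite directions between Aire-high and Ccl21a-high cells. Mcl1 was higher in Aire-high cells, as Bcl2l1 was, but by a smaller margin. Bcl2 was highest in cells that passed no gate, at 1.53 (1.44 to 1.62) in the smaller and 1.16 (1.09 to 1.24) in the larger library. Next came cTECs in the smaller library and Ccl21a-high cells in the larger: cTECs had 1.09 (0.964 to 1.23) and 0.702 (0.631 to 0.777), and Ccl21a-high cells 0.955 (0.899 to 1.01) and 0.993 (0.946 to 1.04). In Aire-high cells Bcl2 was at 0.262 (0.237 to 0.290) and 0.268 (0.246 to 0.293). The Aire-high, enterocyte and microfold classes, all at or below 0.268, had overlapping intervals in both libraries, and the Ccl21a-high and no-gate classes stood above each of them without overlap. Against all other kept cells, Bcl2 in Aire-high cells differed by a log2 ratio of -1.69 and -1.42 (smaller and larger library), and in Ccl21a-high cells by 0.66 and 1.02. The no-gate contrast depends on the gates: averaged over the libraries its log2 ratio was 1.31, against 0.60 with all gate cut-offs doubled and 1.71 with them halved.

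Bcl2l1 was highest in Aire-high cells, at 1.11 (1.06 to 1.17) and 1.12 (1.07 to 1.17), and this level exceeded that of all other kept cells by a log2 ratio of 1.45 and 1.64. The enterocyte class came next in the smaller library with 0.852 (0.743 to 0.972), and had 0.823 (0.716 to 0.942) in the larger. Keratinocyte cells came next in the larger library, at 0.982 (0.777 to 1.22), which overlapped the Aire-high interval. In the smaller library they had 0.522 (0.391 to 0.683). Ccl21a-high cells had 0.242 (0.215 to 0.272) and 0.210 (0.189 to 0.233), and cTECs 0.223 (0.167 to 0.290) and 0.272 (0.229 to 0.321). Bcl2 was thus low in the Aire-high class, where Bcl2l1 was high, and over all 11 classes the correlation of the genes was -0.59 and -0.60. This was not particular to Bcl2l1: Bcl2 had -0.56 and -0.60 with Mcl1, -0.78 and -0.61 with Fas, and -0.78 and -0.89 with Bak1. With Bid it had 0.05 and 0.06, and with Bad 0.17 and 0.56. The no-gate class, highest for Bcl2, was not low for Bcl2l1: it had 0.594 and 0.581, against 0.607 and 0.553 over all kept cells. G2/M cells, which hold both Aire- and Ccl21a-expressing cells, were low for Bcl2l1 (0.378 and 0.309) and for Bcl2 (0.313 and 0.324). S cells were low for Bcl2l1 (0.305 and 0.316), but their Bcl2 level of 0.472 and 0.588 compared with 0.682 and 0.605 over all kept cells and passed 1.5-fold against the other cells in neither library.

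Mcl1, which encodes a short-lived pro-survival protein, lay between 1.03 and 2.25 in every class and library. It was lowest in cTECs, at 1.14 (1.01 to 1.28) and 1.03 (0.940 to 1.12), or a log2 ratio of -0.80 and -0.75 against all other kept cells, the only class in which it passed 1.5-fold in both libraries. Among the other classes the highest was tuft in the smaller library (2.25, 2.06 to 2.45) and keratinocyte in the larger (2.19, 1.88 to 2.54), neither apart from its neighbours in the order. Aire-high cells had 2.16 (2.09 to 2.24) and 2.04 (1.98 to 2.10). Ccl21a-high cells had 1.62 (1.55 to 1.70) and 1.32 (1.26 to 1.37), below Aire-high cells without overlap in either library.

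**Figure D1:**
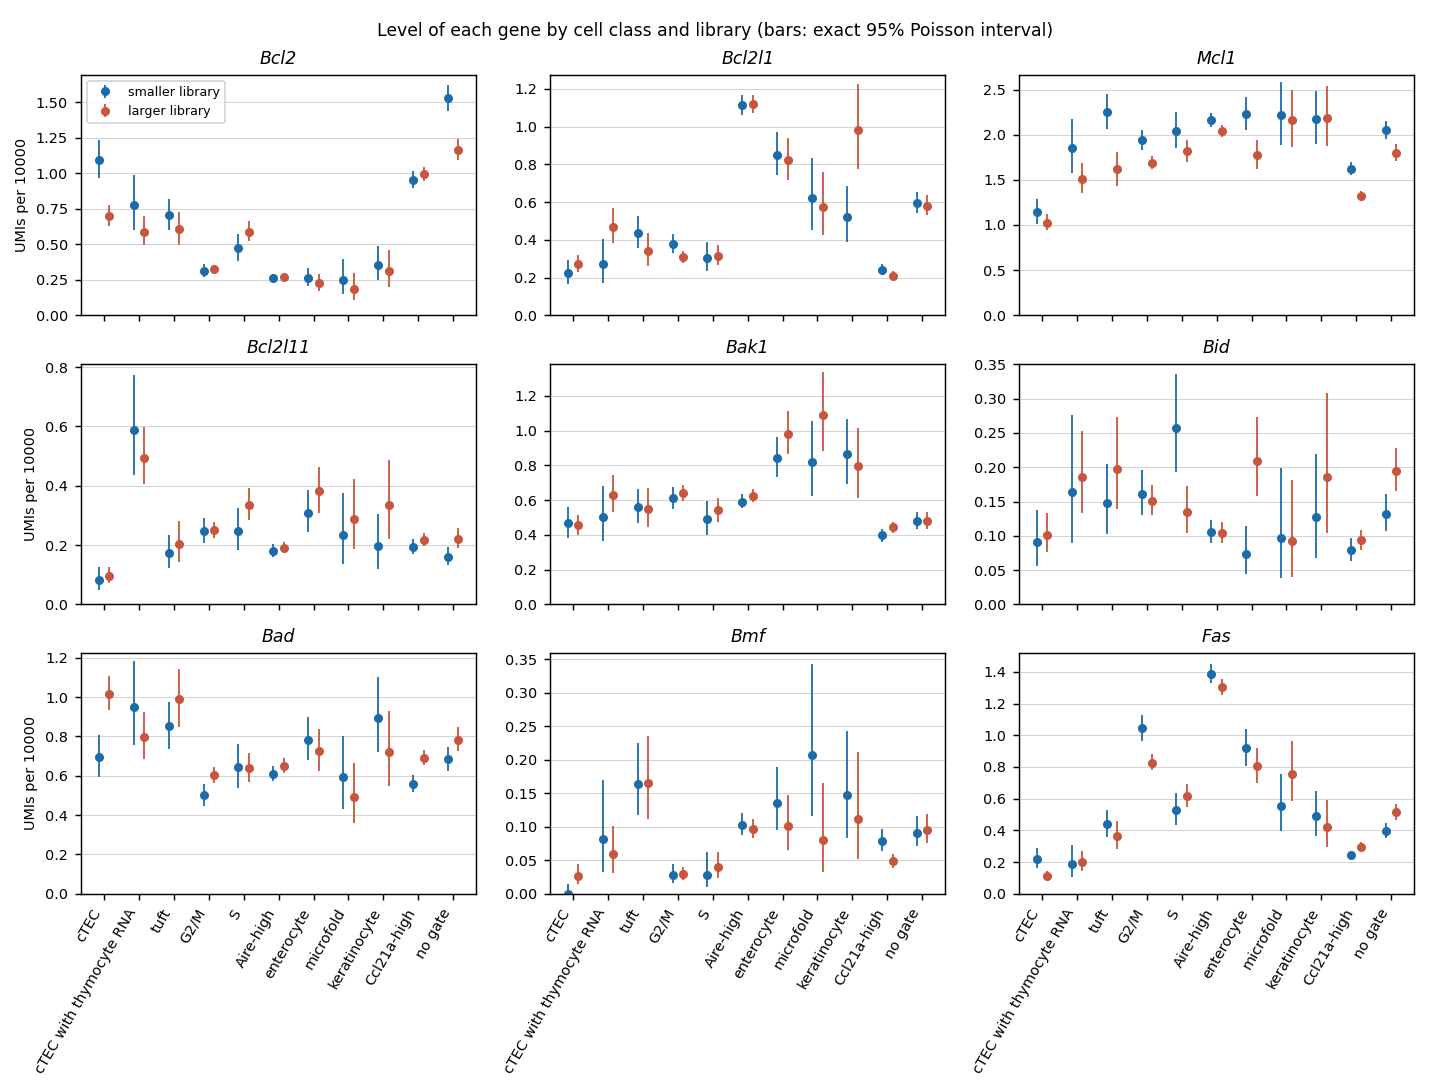
Level of each of the 9 genes (y axes, UMIs per 10000 UMIs, each panel with its own scale from 0) in the 11 cell classes (x axes) in the smaller (blue) and larger (red) library; bars are exact 95% Poisson intervals. Fas and Bcl2l1 peak in Aire-high cells, at 1.39 and 1.11 in the smaller library, where Bcl2 is at 0.262.

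Fas and Bak1 stand on the other side, as receptor and effector of death. Fas was highest in Aire-high cells, at 1.39 (1.33 to 1.45) and 1.31 (1.25 to 1.36), followed by G2/M cells at 1.04 (0.965 to 1.13) and 0.828 (0.779 to 0.880). It was at 0.241 (0.214 to 0.272) and 0.297 (0.272 to 0.324) in Ccl21a-high cells and at 0.218 (0.164 to 0.286) and 0.109 (0.0827 to 0.142) in cTECs. The Aire-high interval overlapped that of no other class in either library, and the log2 ratio of Aire-high to all other kept cells was 1.503 and 1.417. The highest class exceeded the lowest 7.39-fold in the smaller library, against 16 UMIs in cTECs with thymocyte RNA, and 12.0-fold in the larger, against 57 UMIs in cTECs. Bak1, a pore-forming effector, was highest in the enterocyte, microfold and keratinocyte classes. Enterocyte cells had 0.840 (0.732 to 0.960) and 0.983 (0.865 to 1.11), and microfold cells 0.816 (0.621 to 1.05) and 1.09 (0.884 to 1.33). Keratinocyte cells had 0.867 (0.695 to 1.07) and 0.795 (0.613 to 1.02). Ccl21a-high cells were lowest for Bak1, at 0.397 (0.362 to 0.435) and 0.444 (0.413 to 0.477). No pair of neighbours in the order of Bak1 levels had separate intervals.

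The BH3-only genes differed in their patterns. Bcl2l11, a sensor of lost survival signals and a mediator of thymocyte deletion, was highest in cTECs with thymocyte RNA, at 0.588 (0.436 to 0.775) and 0.494 (0.406 to 0.596), and lowest in the remaining cTECs, at 0.0824 (0.0503 to 0.127) and 0.0958 (0.0711 to 0.126). The first class is the one gated on the 14 thymocyte genes, which summed to 47.1 and 42.1 UMIs per 10000 there and to 0.911 and 0.721 in the remaining cTECs; all 14 are detected over the kept cells, and their part in the Bcl2l11 level was not tested. Enterocyte cells were next for Bcl2l11, with 0.310 (0.246 to 0.386) and 0.381 (0.309 to 0.464), and their thymocyte list was at 1.05 and 0.901. Bmf, which links the cytoskeleton to the death machinery, was at 0.164 (0.117 to 0.225) and 0.165 (0.111 to 0.235) in tuft cells. These levels were a log2 ratio of 1.02 and 1.39 against all other kept cells. Microfold cells were highest in the smaller library, at 0.208 (0.116 to 0.342) on 15 UMIs, and had 0.0805 (0.0324 to 0.166) in the larger. The keratinocyte and enterocyte intervals overlapped those of tuft cells in both libraries. In cTECs Bmf had 0 UMIs in the smaller library, with an interval up to 0.0152 per 10000, and 14 UMIs in the larger, at 0.0268 (0.0147 to 0.0450).

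Bad, a BH3-only protein governed by growth factor signalling, varied least among this group, between 0.494 and 1.02, and passed 1.5-fold against other kept cells in no class in both libraries. Bid, the target of caspase-8, was low everywhere (0.0736 to 0.257) and its order over classes differed between the libraries: S cells were highest in the smaller library with 54 UMIs, and enterocyte cells in the larger, also with 54. The only class in which Bid differed by 1.5-fold from all other cells in both was Ccl21a-high, with a log2 ratio of -0.69 and -0.59. The Spearman correlation of the class levels between the libraries was 0.20 over 11 classes, which share gates and marker genes.

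These class differences are to be read against how many genes differ between the classes. In Aire-high cells 3 of the 9 genes passed 1.5-fold the same way in both libraries, beside 42.9% of all 14607 genes with at least 100 UMIs per library. The counts were 4 in Ccl21a-high cells (background 40.5%), 5 in cTECs (36.4%), 2 in cTECs with thymocyte RNA (29.4%), 2 in tuft (37.1%), 3 in G2/M (40.4%), 2 in S (21.2%), 3 in enterocyte (27.6%), 2 in microfold (22.1%), 2 in keratinocyte (18.2%) and 1 in no-gate cells (12.5%). With 9 genes these shares lay near the background, and nothing is read from the counts themselves.

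The levels were also set against the level of Aire in the cell itself. Cells of the Aire-high, enterocyte, microfold, keratinocyte, Ccl21a-high and no-gate classes were pooled for this. Aire is among the genes that gate the Aire-high class, so the bins in part restate the contrast between the classes. Fas was at 0.253 (0.230 to 0.278) in cells without an Aire UMI and at 1.96 (1.77 to 2.16) in cells with more than 20 Aire UMIs per 10000 in the smaller library, and at 0.290 (0.268 to 0.314) and 1.40 (1.26 to 1.55) in the larger. Bcl2l1 went from 0.342 (0.315 to 0.370) to 1.32 (1.16 to 1.48) and from 0.328 (0.304 to 0.353) to 1.27 (1.14 to 1.42). Bcl2 went the other way, from 1.11 (1.06 to 1.16) to 0.164 (0.113 to 0.230) and from 1.06 (1.01 to 1.10) to 0.275 (0.214 to 0.348). Mcl1 rose less, from 1.82 (1.76 to 1.88) to 2.17 (1.97 to 2.38) and from 1.44 (1.39 to 1.49) to 1.92 (1.75 to 2.10). The steps between were uneven. In the larger library Fas was at 1.31, 1.37 and 1.40 in the bins above 5, with overlapping intervals. Bcl2 was at 0.230 there in the bin above 10 to 20, below its top bin. Cells without an Aire UMI were also shallower, with a median of 10380 and 9711 UMIs against 18659 and 14957 in the top bin, so a cell with little Aire can fall in the bin at 0. In the top bin the Fas intervals of the libraries did not overlap, whereas those of Bcl2l1 and Mcl1 did. In every lower bin the Fas intervals of the libraries overlapped. Those of Bcl2l1 were apart in the bin above 0 to 5, at 0.911 (0.844 to 0.980) and 0.693 (0.643 to 0.746). Those of Mcl1 were apart in the bin at 0. No gene is therefore singled out by the top bin.

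**Figure D2:**
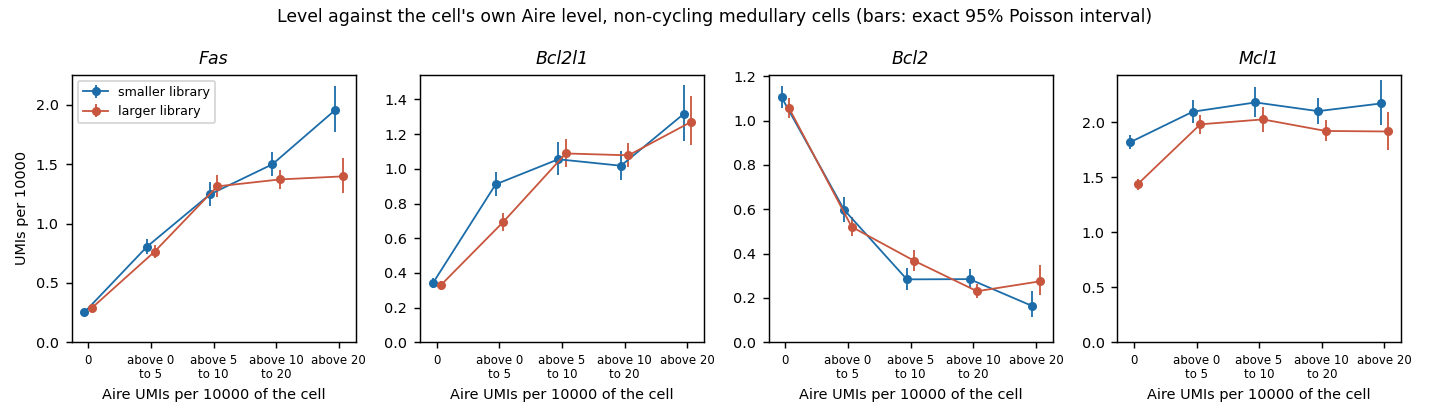
Level of Fas, Bcl2l1, Bcl2 and Mcl1 (y axes, UMIs per 10000, from 0) by the cell's own Aire UMIs per 10000 (x axes). The smaller library is blue and the larger red. Cells are those of the Aire-high, enterocyte, microfold, keratinocyte, Ccl21a-high and no-gate classes, and bars are exact 95% Poisson intervals. Fas and Bcl2l1 are higher in the top bin than in the bin at 0, and Bcl2 falls from above 1 to below 0.3. Mcl1 lies between 1.44 and 2.18 and is lowest in the bin at 0. In the larger library Fas is nearly flat above 5 Aire UMIs per 10000.

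The share of cells with a UMI gave the same picture at equal depth. After each cell was thinned to 4000 UMIs, which left out 5 shallower cells of the larger library (2 of them Ccl21a-high) and 0 of the smaller, 37.0% of Aire-high cells in the smaller library (33.5 to 40.6, exact Clopper-Pearson interval) and 39.5% in the larger (36.6 to 42.3) had a Fas UMI, and 9.42% (7.69 to 11.4) and 10.6% (9.09 to 12.2) of Ccl21a-high cells did. For Bcl2l1 the shares were 33.0% and 31.3% in Aire-high and 7.94% and 7.75% in Ccl21a-high cells. For Bcl2 they were 10.5% and 8.89% against 30.3% and 33.7%. Without thinning, Fas was found in 78.8% and 74.9% of Aire-high cells and in 21.2% and 23.8% of Ccl21a-high cells, whose median depths were 18789 and 15987.5 against 10414 and 9819 UMIs. No class was known to lack these genes; the tuft cell gene Avil, found in 96.9% and 98.7% of tuft cells, was found in 2.0% and 2.25% of Aire-high and in 0.198% and 0.312% of Ccl21a-high cells after thinning. Within Aire-high cells, 34.7% of cells with a Fas UMI (29.1 to 40.6) and 32.0% of cells without one (27.8 to 36.4) had a Bcl2l1 UMI in the smaller library, and 33.9% (29.6 to 38.5) and 29.5% (26.2 to 33.1) did in the larger, so a difference between the cells was not detectable at this depth.

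The comparison between the libraries asks how the epithelium 15 days after irradiation differs from that of untreated mice. With 1 library per condition there is no replicate, so no test was made, and ranges cover counting error alone. To set aside the different class make-up, ratios were standardised to 1 common mix of the 11 classes. None of the 9 genes passed 1.5-fold, beside 3.16% of the 14607 genes. The standardised log2 ratios ran from -0.19 to 0.18, with a median of -0.02 for the 9 genes and -0.03 for all genes, and the middle 9 in 10 of all genes lay between -0.44 and 0.23.

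Mcl1 went from 1.93 per 10000 in the smaller to 1.69 in the larger library, a log2 ratio of -0.19 (95% counting range -0.23 to -0.15), and was lower in 10 of 11 classes. Bcl2 had -0.14 (-0.20 to -0.07) and Bcl2l1 -0.02 (-0.09 to 0.05). On the BH3-only side, Bad had 0.18 (0.11 to 0.24), Bcl2l11 0.18 (0.06 to 0.29, higher in 10 of 11 classes), Bid 0.15 (0.00013 to 0.30) and Bmf -0.19 (-0.38 to -0.0046). The 10 classes of Bcl2l11 rest on sign alone, since no class had a range that left out 0. Bak1 had 0.10 (0.03 to 0.17) and Fas -0.07 (-0.13 to -0.01). Values of this size were common: the Mcl1 ratio lay at percentile 19.3 of all genes and that of Bcl2l11 at percentile 91.5. The handling-stress genes went the same way as Mcl1 between the libraries, with sums of 71.1 and 36.9 UMIs per 10000, and their part in the Mcl1 value was not tested.

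**Figure D3:**
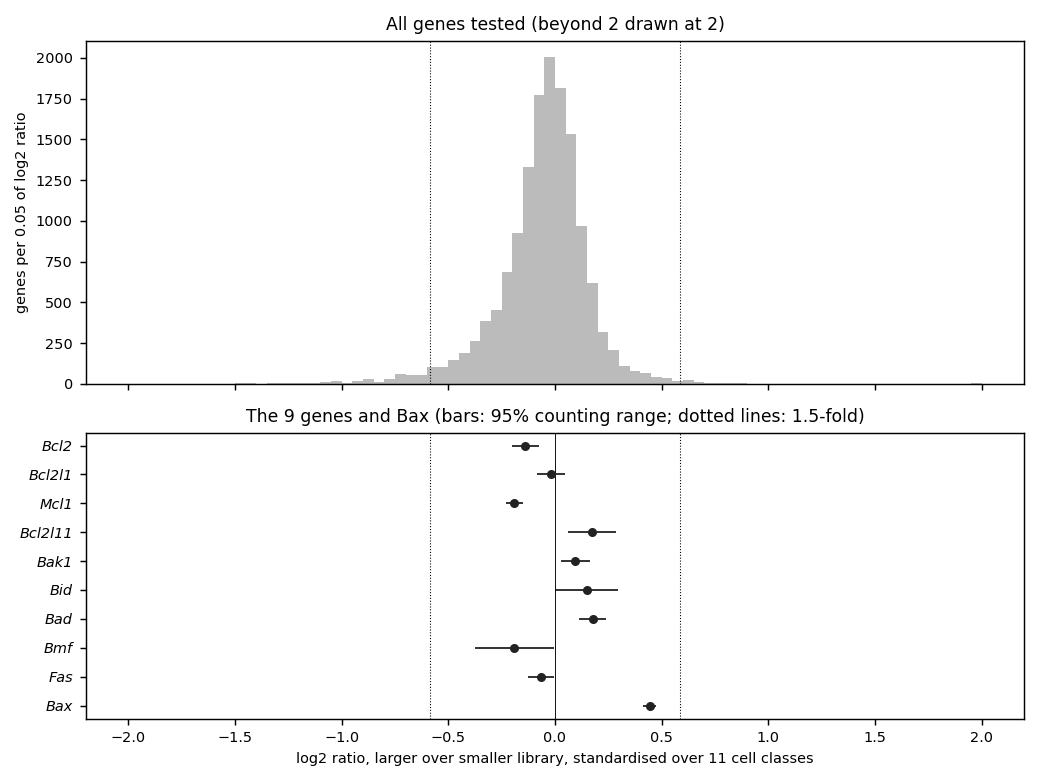
Top, number of genes (y axis, per 0.05 of the log2 ratio) by standardised log2 ratio of the larger over the smaller library (x axis) for 14607 genes; bottom, the same ratio for the 9 genes and Bax, with 95% counting ranges; dotted lines mark 1.5-fold. The 9 genes lie between -0.19 and 0.18, and Bax at 0.44.

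Within classes the values were less even. Of 99 pairs of a gene and a class, 19 had a range that left out 0, 8 higher and 11 lower in the larger library. The share over all genes was computed only for pairs with at least 100 UMIs in each library, so nothing is read from that count. Among such pairs, 13 of 50 (26%) had a range that left out 0, beside 18.8% of pairs over all genes. Of the 50 pairs with at least 100 UMIs in each library, 1 passed 1.5-fold (2%), beside 3.28% of 54014 pairs over all genes. That pair was Bcl2 in cTECs, with 265 and 366 UMIs, or 1.09 and 0.702 per 10000, and a log2 ratio of -0.64 (-0.96 to -0.31); the background in cTECs was 3.19%. Bcl2 was also lower in no-gate cells (-0.39, -0.57 to -0.22), whereas in Aire-high (0.03) and Ccl21a-high cells (0.06) its range included 0. The no-gate class is set by what its cells lack, and it made up 18.1% of the smaller and 13.1% of the larger library. The stress list was at 55.3 and 27.9 per 10000 in cTECs and at 103 and 42.9 in no-gate cells, and its part in the Bcl2 values was not tested.

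Fas was lower in the larger library in cTECs, on 53 and 57 UMIs or 0.218 and 0.109 per 10000 (-1.0, -1.79 to -0.21), and in G2/M cells (-0.34, -0.54 to -0.13). It was higher in Ccl21a-high (0.30, 0.0018 to 0.60) and no-gate cells (0.37, 0.07 to 0.68), and in Aire-high cells, which held 2024 of its 3838 UMIs in the smaller and 2505 of 5260 in the larger library, its range included 0 (-0.09, -0.21 to 0.03). Bad was higher in cTECs, at 0.696 and 1.02 per 10000 (0.54, 0.20 to 0.90), where Bcl2 was lower. Bcl2l1 differed in keratinocyte cells on 53 and 79 UMIs (0.91, 0.19 to 1.65), and Bid in enterocyte cells on 19 and 54 UMIs (1.49, 0.46 to 2.63). Bmf was lower in Ccl21a-high cells on 91 and 83 UMIs (-0.71, -1.33 to -0.09). Mcl1 was lower in tuft (-0.48, -0.77 to -0.19), enterocyte (-0.33), Ccl21a-high (-0.30), G2/M (-0.20) and no-gate cells (-0.19), each with a range below 0. None of the pairs with 100 UMIs or more passed 1.5-fold outside cTECs; the background was 2.08% in cTECs with thymocyte RNA, 2.87% in tuft, 1.58% in G2/M, 2% in S, 3.94% in Aire-high, 4.18% in enterocyte, 7.52% in microfold, 6.72% in keratinocyte, 2.23% in Ccl21a-high and 4.46% in no-gate cells.

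**Figure D4:**
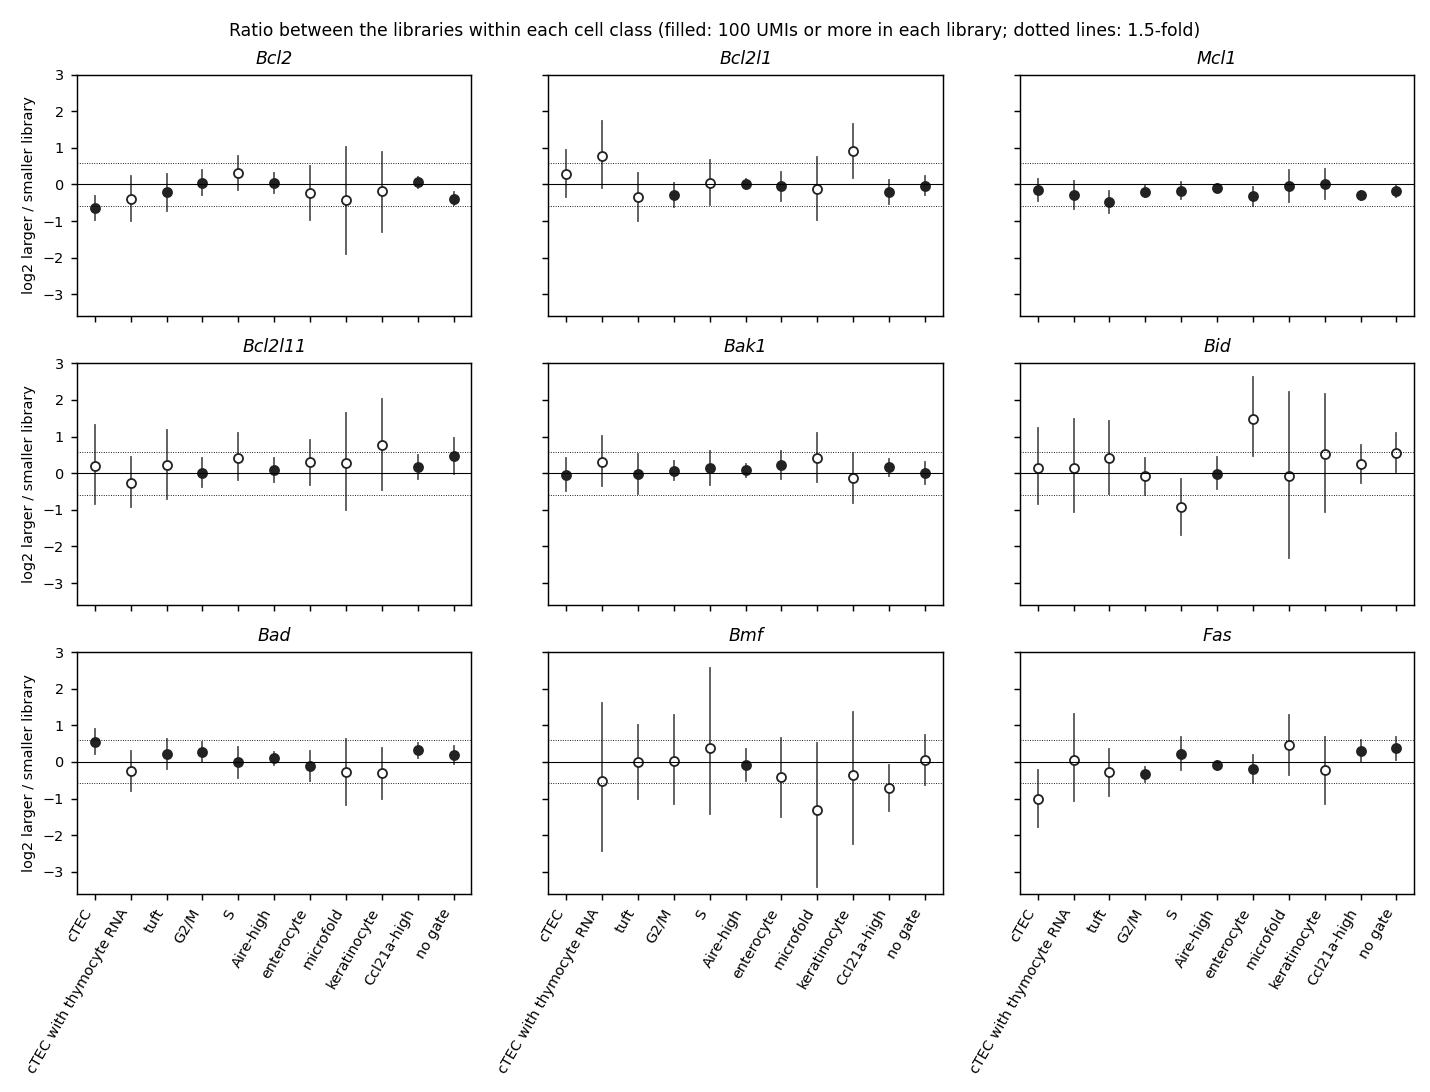
Log2 ratio of the larger over the smaller library (y axes) in each of the 11 classes (x axes) for the 9 genes; vertical lines span the ends of the exact Poisson intervals, filled points have at least 100 UMIs in each library, dotted lines mark 1.5-fold, and Bmf in cTECs, with 0 UMIs in the smaller library, is not drawn. Bcl2 in cTECs, at -0.64, is the one filled point past a dotted line.

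The other genes of the pathway were counted whole from a list of 34, of which 31 had at least 100 UMIs per library; the death receptor Tnfrsf25 (34 and 27 UMIs), the ligand Fasl (4 and 27 UMIs) and the pro-survival gene Bcl2l10 (2 and 1) did not. By class, Aire-high cells had 12 of the 31 higher and 3 lower in both libraries, Ccl21a-high cells 3 higher and 15 lower, and cTECs 2 higher and 16 lower, beside 42.9%, 40.5% and 36.4% of all genes in either direction. Nothing particular to the list is read from these counts. Aire-high cells were high for Cflar, the inhibitor of caspase-8 activation at Fas (3.49 and 3.39 per 10000, against 1.22 and 1.31 in Ccl21a-high cells), and for the effector Bax (3.97 and 5.75 against 1.62 and 2.05). The BH3-only gene Hrk had 314 and 239 UMIs in Aire-high cells and 0 and 1 in Ccl21a-high cells. Ccl21a-high cells were high for the death ligand Tnfsf10 (TRAIL), at 0.808 and 0.656 against 0.144 and 0.127 in Aire-high cells.

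Microfold cells carried the highest levels of the pro-survival genes Bcl2a1b (16.8 and 19.5 per 10000) and Bcl2a1d (11.5 and 13.2), whose copies are near identical so that the split between them is uncertain, and of the BH3-only gene Pmaip1 (NOXA, 3.68 and 2.89). Bik, another BH3-only gene, was highest in tuft cells (1.56 and 1.98), and Bok, a BAX-like effector, in cTECs (1.61 and 1.29).

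**Figure D5:**
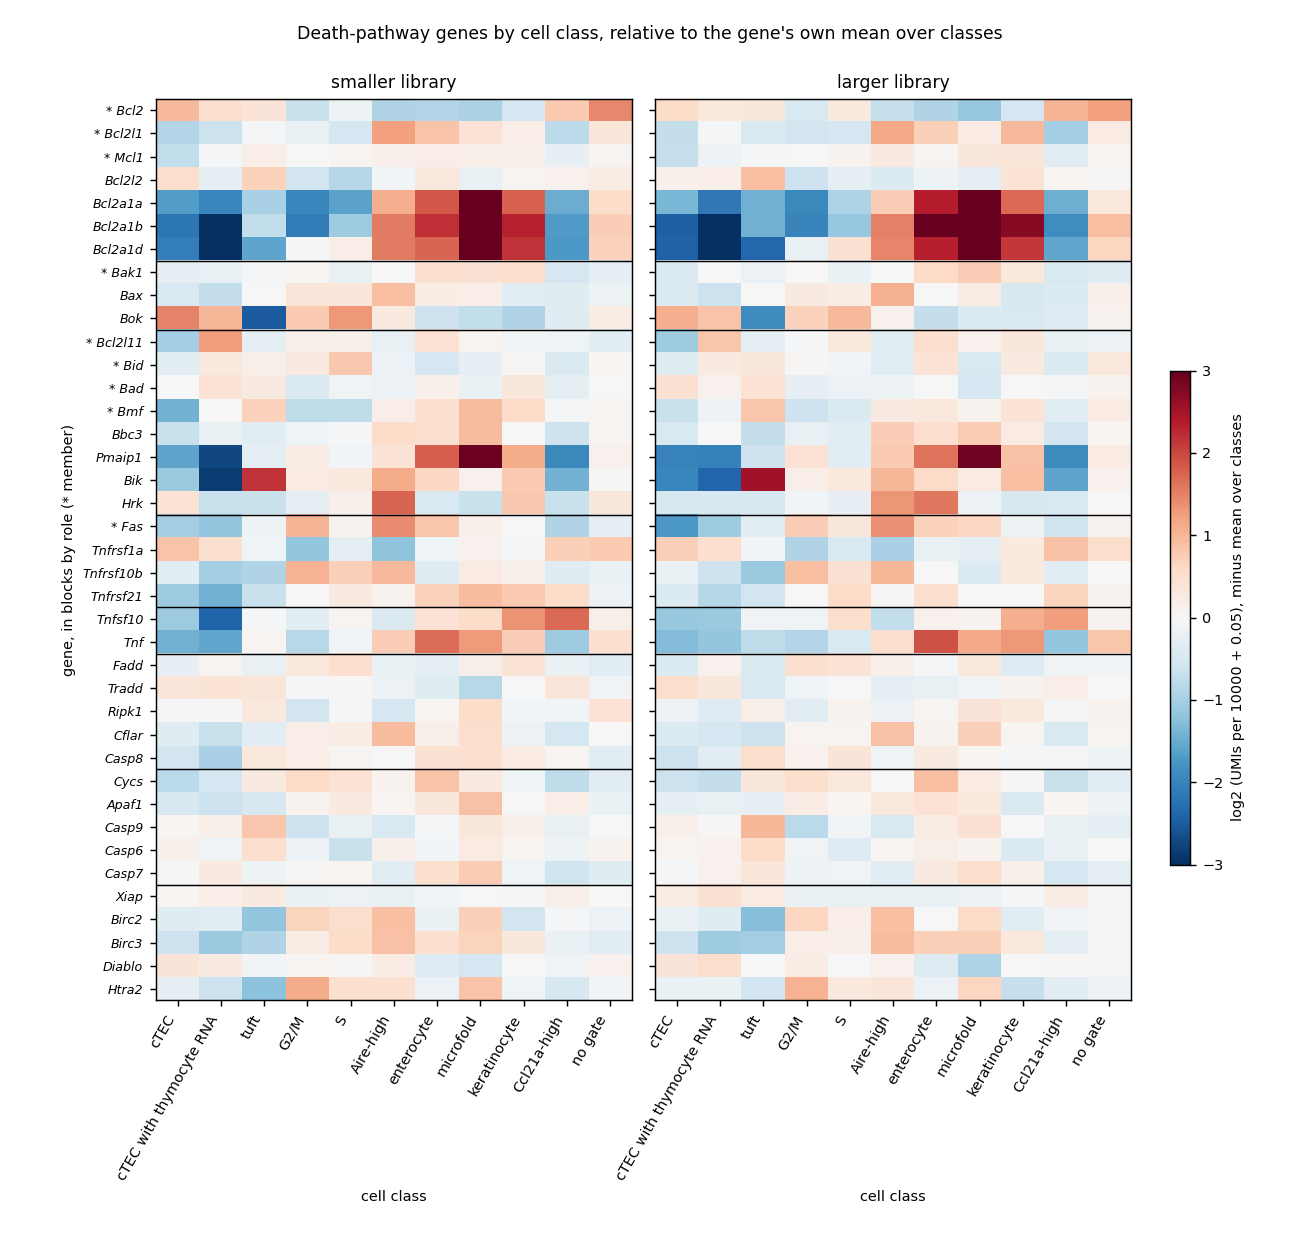
Colour gives log2 (UMIs per 10000 + 0.05) of each of 39 death-pathway genes (rows, in blocks by role, * for the 9 genes) in each of 11 classes (columns), minus the gene's own mean over classes, in the smaller (left) and larger (right) library; values beyond 3 take the end colour. The microfold column is darkest for Bcl2a1b, at 16.8 and 19.5 UMIs per 10000.

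Between the libraries, 1 of the 31 passed 1.5-fold after standardisation (background 3.16%): Hrk, at -0.69 (-0.90 to -0.48), on a level of 0.0734 and 0.0455 per 10000. Its classes were mixed: Hrk was higher in the larger library in 5 of 11, with a range above 0 in 1 and below 0 in 3. The 5 rest on the sign of ratios with 0.5 added UMIs, and they include Ccl21a-high cells, where Hrk was nearly absent. Bax, the partner effector of Bak1, had the highest standardised ratio of the 31, at 0.44 (0.41 to 0.47), and was higher in the larger library in 11 of 11 classes, with a range above 0 in 9. Its level was 3.97 and 5.75 in Aire-high cells and 1.88 and 3.03 in no-gate cells. Bak1 had 0.10, with no class whose range left out 0. Casp8, the caspase recruited by Fas, had 0.18 (0.11 to 0.24). By count, 12 of the 31 were above 0 and 19 below, with a median of -0.04. The median of all genes was -0.03, and a ratio of 0.0019 (Tnfrsf1a) lay at percentile 60.1 of them. Nothing particular to the list is read from this count.

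Finally, for each gene the 3 genes most like it over the 11 classes were sought over the 9828 genes that had 500 or more UMIs in both libraries, by Pearson correlation of log2 levels, ranked by the lower of the libraries' values. Fas was most like Tbc1d4 (r = 0.95 and 0.95), Cyba and Snx8. Bcl2l1 was most like Grap (0.94 and 0.92), Cd52 and Map2k6, and Bcl2 was most like Tsix (0.95 and 0.92), Pygo1 and Ptk7. Bak1 went with Aup1, Mcl1 with Ptk2b, Epsti1 and Acot7, Bad with Abcf3, Prpf18 and Coq10a, and Bmf with Acox3, Stambp and Neat1. The best match of Bcl2l11 was Gmfg (0.74 and 0.75) and that of Bid Cdc25a (0.67 and 0.61), both weaker than for the other genes. The correlation of Bcl2 with Bak1 over the classes was -0.78 and -0.89, and that of Bcl2l1 with Fas 0.78 and 0.54. These are descriptions over 11 classes of 1 library each, which share gates, depth and free RNA.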

How the data were processed

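The authors deposited, for each library, a matrix of raw UMI counts per gene and cell barcode. Per the labels and the study's methods, TECs were encapsulated with a 10x Genomics Chromium kit, and reads were trimmed with Fastp, then aligned to mm10 and counted with Cell Ranger (5.1 per the labels' processing notes, 5.0.1 per the file headers). All columns belong to these 2 libraries. No replicate exists, so no p-value was computed.

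From the counts, cells within the study's stated limits were kept, gated in a fixed order by marker UMIs per 10000 (cut-offs of 10 to 40), and summed per class. Ratios within a class used 0.5 added UMIs. Standardised ratios weighted the 11 classes by their mean share of UMIs in both libraries. A call needed 1.5-fold, at least 100 UMIs per library and a counting range without 0. No doublet caller was run; the upper gene limit is the only guard. The precision is set by 51586327 and 75542631 kept UMIs. Named genes were the 9 members, the whole pathway list and the 3 most alike genes; some of these are not reported here. Cut-offs were set on the marker lists' own distributions. Members, lists and cut-offs were chosen with earlier results of these data known. Functions were tested on simulated data (Python 3.11.15, NumPy 2.4.6, SciPy 1.17.1). Alternatives covered cell limits, denominator, gates, thinning, added UMIs, fold and minimum UMIs.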

Additional observations from a re-analysis of the deposited data

Results flagged for a closer look

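Among the members, Fas and Bid had class ratios between the libraries on both sides of 0, with counting ranges that left out 0. This also held for Bcl2a1a, Bcl2a1b, Bcl2a1d, Bik, Hrk and Tnfsf10 of the pathway list. The share over all genes was not computed, so Fas and Bid are not singled out by this rule. The difference between the classes was not tested. For Fas the log2 ratio of the larger over the smaller library was -1.0 in cTECs and -0.34 in G2/M cells, and 0.30 in Ccl21a-high and 0.37 in no-gate cells. For Bid it was -0.93 in S cells, and 1.49 in enterocyte and 0.56 in no-gate cells.

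The 3801 barcodes outside the limits are used in no comparison above, and all 9 genes had UMIs in them, above the limit that a count of 0 allows. In both libraries together, Bcl2l11 was at 0.362 UMIs per 10000 there, against 0.219 in kept cells. Fas was at 0.475 and Bak1 at 0.438, against 0.716 and 0.560 in kept cells. The others were at 0.719 (Bcl2), 0.523 (Bcl2l1), 1.63 (Mcl1), 0.0950 (Bid), 0.520 (Bad) and 0.0830 (Bmf).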

How the results depend on the processing

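No paired analysis was possible because each condition has 1 library. Of 81 values of the standardised ratios under 9 alternatives (gene and mitochondrial limits, denominator, mean over cells, gate cut-offs, cells with thymocyte RNA, thinning, deep cells), 80 stayed within the reported counting range, and Bad was at 0.26 when cells were thinned to 4000 UMIs. Of 1069 values of the ratios within classes, 1049 stayed within range, and all 209 values of the 19 pairs whose range left out 0 kept their sign. Those pairs were picked by that range and the alternatives reuse mostly the same cells, so the kept signs do not stand in for a replicate. The contrast of the highest class with other kept cells, averaged over the libraries as log2, moved with the gates: with cut-offs doubled it was 0.60 for Bcl2 (no gate), 1.17 for Bcl2l1 and 1.35 for Fas (both Aire-high), and with cut-offs halved 1.71, 1.65 and 1.40, from 1.31, 1.55 and 1.46. As a mean over cells it was 1.75 for Bcl2l1 and 1.74 for Fas, and after thinning 1.79 and 1.77, with 0.20 for Bid in S cells, from 0.64 without thinning. Leaving out cells above the thymocyte gate removes the class in which Bcl2l11 was highest, and gave no value. Without thinning, the share of cells with a UMI in Aire-high minus Ccl21a-high cells was -26.6 and -28.9 points for Bcl2, 52.1 and 44.6 for Bcl2l1 and 57.5 and 51.0 for Fas (smaller and larger library), each of the same sign as at equal depth. At 2-fold, 0 pairs of the 9 genes with a class, 0 genes of the pathway list and 0 of its pairs passed. The share over all genes at 2-fold was not computed, so nothing is read from these counts either. With a minimum of 50 UMIs, 5 of 72 pairs of the 9 genes passed 1.5-fold. The share over all genes at that minimum was not computed, so nothing is read from this count. Depth limits Bid and Bmf most, with 0 to 200 UMIs per class and library.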
